A study of Mus musculus with 24 samples.

Results

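The diet comparison in mice carrying the human ApoE4 gene set 6 arrays of choroid plexus from animals on a high-fat diet against 6 arrays from animals on normal chow, 12 of the 24 arrays of the study. The ApoE4 high-fat group and the ApoE4 chow group were both C57BL mice with a humanized ApoE4 knock-in, aged 78 weeks, and each held 3 males (replicates 1 to 3) and 3 females (replicates 4 to 6). The other 12 arrays came from humanized ApoE3 mice of the same strain and age on the same 2 diets, again 6 arrays a group, and they entered here as a second diet comparison that shares no arrays with the first. Fresh-frozen choroid plexus was collected by laser capture microdissection and measured on the Affymetrix Mouse430A_2 array. On this array a probe set is a group of short probes, mostly against transcripts of 1 gene. No array of the wild-type mouse gene was analysed here, so a diet effect in ApoE4 mice can be set only beside that in ApoE3 mice. The sources used here give neither the composition and duration of the diet, nor the time of day of tissue collection, nor the choice of captured regions. Nothing in the labels ties each array to an animal of its own, so p-values reflect only the spread between samples, which may be technical.

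The choroid plexus is the secretory epithelium of the brain ventricles. Its cells make cerebrospinal fluid, export large amounts of the thyroid hormone carrier transthyretin, and form a barrier between blood and that fluid around a core of leaky vessels, fibroblasts and macrophages. Heavy secretion keeps the endoplasmic reticulum busy, and when unfolded proteins build up there a set of chaperone genes is switched on, a response called the unfolded protein response. The tissue also has a strong circadian clock, in which CLOCK and BMAL1 (gene Arntl) drive the Period genes and the output factors Dbp, Tef and Hlf, whose proteins in turn act on other clock genes. Apolipoprotein E carries lipids between cells in the brain, and its E4 form is the commonest inherited risk factor for late-onset Alzheimer's disease.

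Of the 22690 probe sets on the array, 13936 other than controls were called Present, meaning detected, on at least 6 of the 24 arrays and were tested, and they held 8261 genes. Values are the deposited signals on a linear scale. Differences are log2 of the high-fat over the chow signal after 16 was added to each, which understates changes of dim probe sets, and a value of 1 is a 2-fold difference. The quality measures of the diet groups overlapped: 57.24 to 60.51% of probe sets were Present on high-fat arrays and 55.97 to 59.95% on chow arrays, and log2 signals of any pair of arrays correlated at 0.9703 to 0.9881 across probe sets. Hybridization controls averaged 11.09 to 11.96 on high-fat and 11.34 to 11.76 on chow arrays (log2 scale), and without the 4 dimmest of these arrays (high-fat 2, 5 and 6 and chow 5) the ApoE4 comparison gave 0 calls and its difference from ApoE3 gave 4. Transcripts of the sex chromosomes matched the labelled sex on all 12. All 36 epithelial markers on the array, Ttr among them, were Present on all 12, and Ttr signals were 13080 to 20819.6 on high-fat arrays and 13468 to 23401 on chow arrays. The probe set for mouse Apoe was called Absent on every array, with signals of 2.8 to 3.9 on high-fat and 1.9 to 5.1 on chow arrays. Single arrays lay apart from their group in some genes described below. The chow female numbered 4 did so most often, and results that rest on it are also given without it. For Clock and Nfkbia, through the probe sets with the smallest p, it lay outside the high-fat range. Several other clock and glucocorticoid-responsive signals of this array, such as those of Per3, Fkbp5 and Tsc22d3, were at high-fat levels. Because the array stood apart in these very signals, leaving it out enlarges such differences and gives them no separate support. In bulk tissue a lower signal from fewer cells of a type and one from less RNA per cell cannot be told apart.

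No probe set passed in this comparison. In limma's test with Benjamini-Hochberg adjustment over all probe sets, 0 of 13936 (0%) had an adjusted p under 0.05, and the smallest adjusted p was 0.107. At an unadjusted p under 0.05 there were 405 higher (2.91%) and 518 lower (3.72%) on the high-fat diet, 923 in all (6.62%). The differences were small: 46 probe sets exceeded 1.5-fold and 4 exceeded 2-fold, and the median over all probe sets was -0.0093 on the log2 scale with a median SE of 0.105. The 95% interval of the difference lay within 1.5-fold either way for 12635 probe sets (90.7%) and within 2-fold for 13820 (99.2%). Without the chow female numbered 4 there were 11 calls, 6 higher and 5 lower, and with the mean of brain tissue markers as a covariate there were 15, 10 higher and 5 lower. When 1 array was left out, the smallest adjusted p ranged from 0.00883 without that female to 0.362 without the chow male numbered 2. Without the high-fat female numbered 4 there was 1 call, Pom121. The same test in ApoE3 mice called 34 higher (0.244%) and 1 lower (0.00718%).

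**Figure D1:**
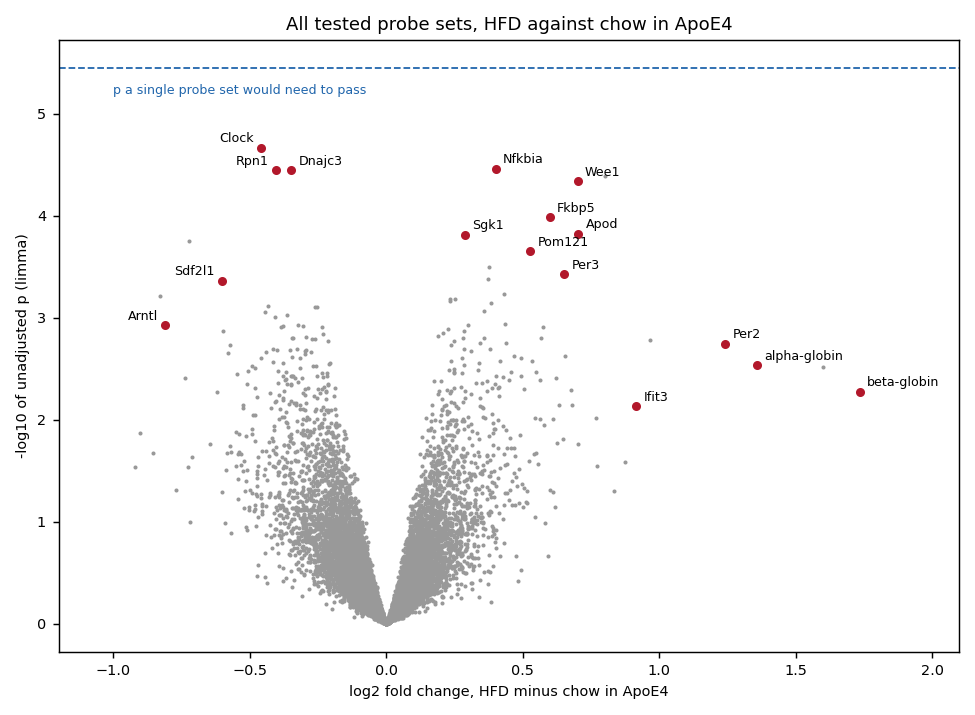
Each point is 1 of 13936 tested probe sets. The horizontal axis is the log2 difference of high-fat minus chow in ApoE4 mice and the vertical axis is -log10 of limma's unadjusted p. The dashed line marks the p of 3.59e-06 that a single probe set would have needed to pass, and the smallest observed p, of Clock, was 2.16e-05.

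The smallest adjusted p, 0.107, was shared by 6: Clock, Nfkbia, Rpn1, Dnajc3, Cd163 and Wee1. Across all tested probe sets, the signals of the 6 high-fat and 6 chow arrays did not overlap for 9 with higher (0.0646%) and 14 with lower (0.1%) high-fat signals. Gene groups are described by 37 lists holding 904 tested genes, each gene read through its brightest probe set. In each list the number of genes past an unadjusted p of 0.05 is given, and 3.32% of all genes were higher and 3.55% lower by that measure. The median over all 8261 genes was -0.0058, and 47.9% were above 0.

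**Figure D2:**
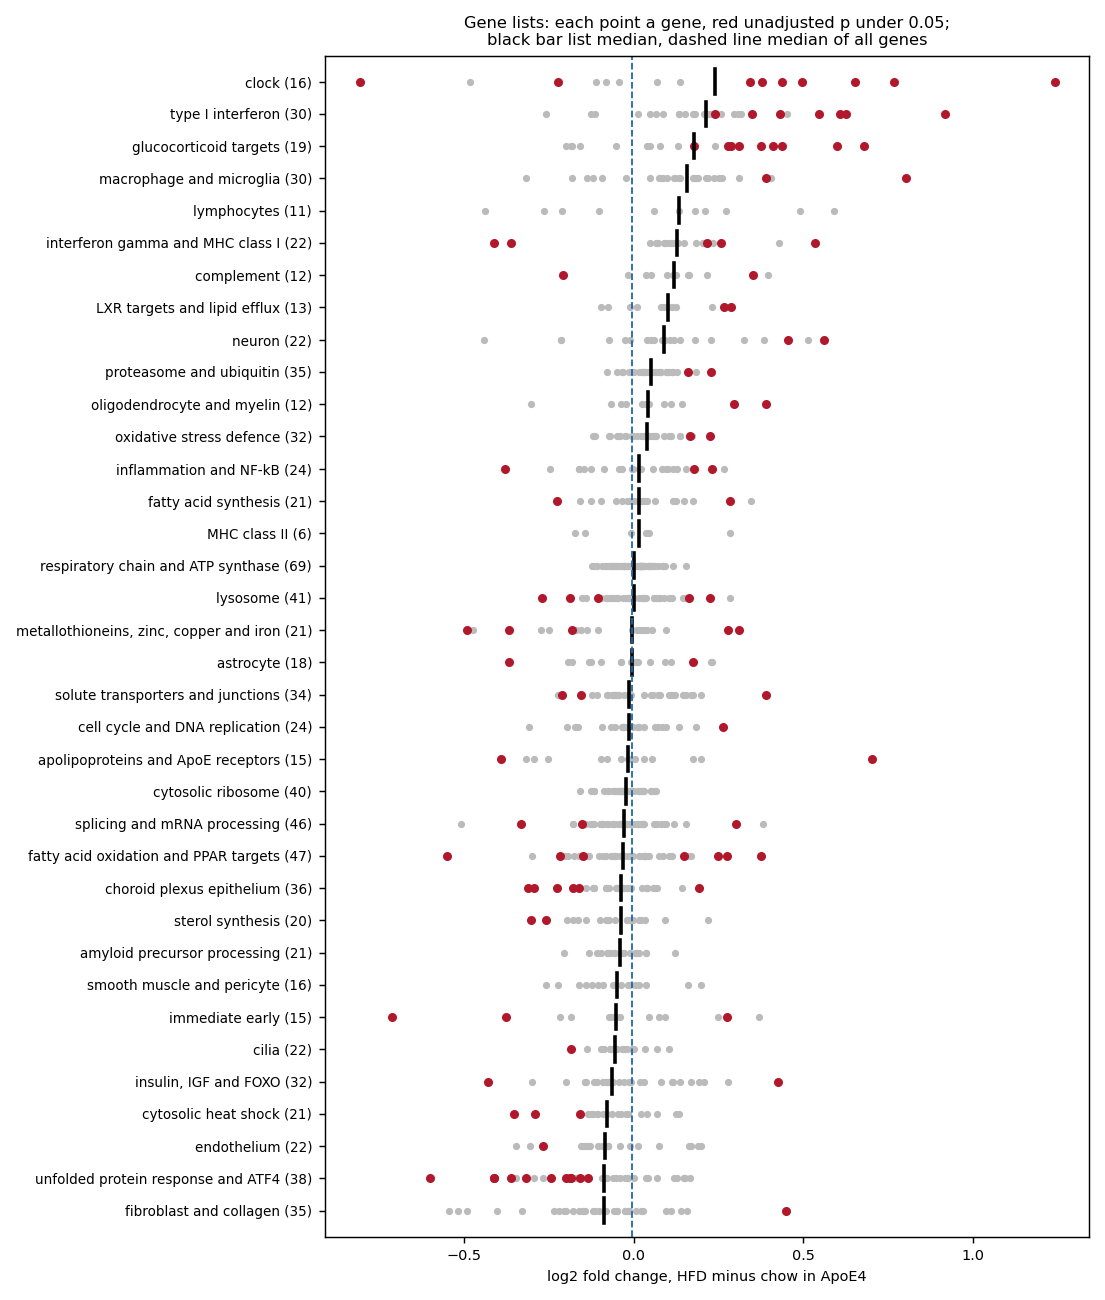
Each row is a gene list and each point a tested gene at its log2 difference of high-fat minus chow in ApoE4 mice. Red points have an unadjusted p under 0.05, black bars are list medians and the dashed line is the median of all genes. The clock list has the median farthest above 0, at 0.24, and the unfolded protein response list has red points on the lower side alone, 11 of 38.

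Chaperones and folding enzymes of the endoplasmic reticulum had lower signals on the high-fat diet, although none passed after adjustment. Of 38 tested genes of the unfolded protein response and its ATF4 branch, 11 were lower and 0 higher at an unadjusted p under 0.05, 28 were below 0, and the list median was -0.09, against 0.03 in ApoE3 mice. The 11 were Sdf2l1, Pdia3, Pdia6, Dnajb11, Calr, Selenos, Canx, Hspa5, Ppp1r15a, Dnajc3 and Atf6. The transcription factors Xbp1 and Ddit3 of the same response gave differences of -0.06 ± 0.12 and 0.04 ± 0.15 (SE).

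Sdf2l1, part of a chaperone complex of the endoplasmic reticulum, had signals of 352, 518 and 763 (lowest, median and highest) on high-fat arrays, against 688, 756 and 981 on chow arrays. The log2 difference was -0.60 ± 0.15 (SE, adjusted p = 0.404). In this gene 5 of 6 high-fat arrays were below every chow array. Dnajc3, a co-chaperone that also restrains the stress kinase PERK, had signals of 1711, 2022 and 2247 through 1 of its 5 probe sets on high-fat arrays, against 2248, 2600.2 and 2715 on chow arrays. Here the diet groups did not overlap, although the gap between them was under 1 signal unit, and the difference was -0.35 ± 0.07 (adjusted p = 0.107). That probe set had the smallest p of the 5 and was chosen after its values were seen. The brightest one gave -0.19 ± 0.09 (adjusted p = 0.739), with overlapping groups, and the other 3 gave -0.20, -0.24 and -0.29, at adjusted p-values of 0.505 or more. Without the chow female numbered 4 the first one gave -0.37 and passed (adjusted p = 0.0459).

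Pdia6 and Pdia3 are protein disulfide isomerases, which form and rearrange disulfide bonds in secreted proteins. Pdia6 had signals of 2536, 3039.7 and 3824 on high-fat arrays, against 3802, 4088 and 4488 on chow arrays, a difference of -0.41 ± 0.12 (adjusted p = 0.432). Only the highest high-fat array reached the chow range. For Pdia3 the signals were 3864, 4398 and 5835 on high-fat arrays, against 5045, 5843 and 6832 on chow arrays, and the difference was -0.36 ± 0.10 (adjusted p = 0.432), with 4 of 6 high-fat arrays below every chow array. Dnajb11, a co-chaperone of BiP, had 653, 773 and 969 on high-fat arrays, against 848, 971 and 1112 on chow arrays, a difference of -0.32 ± 0.10 (adjusted p = 0.443). Again 5 high-fat arrays were below every chow array.

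The calcium-binding lectin chaperone Calr had signals of 4633, 5456 and 7091 on high-fat arrays, against 6268, 7503 and 9227 on chow arrays, with a difference of -0.41 ± 0.15 (adjusted p = 0.561). Hspa5, which encodes BiP, the main chaperone of the endoplasmic reticulum, had 9399.8, 11411 and 14859.9 on high-fat arrays, against 12592, 13799 and 15453 on chow arrays, a difference of -0.24 ± 0.11 (adjusted p = 0.673). For both genes 4 of 6 high-fat arrays were below every chow array and the groups overlapped. Rpn1, a subunit of the complex that adds sugars to newly made proteins, was chosen after its values were seen. Of its 5 probe sets the one with the smallest p had 2609, 3001 and 3615 on high-fat arrays, against 3301, 4079.9 and 4569.9 on chow arrays, a difference of -0.40 ± 0.08 (adjusted p = 0.107), and the brightest one gave -0.19 ± 0.06 (adjusted p = 0.464). The other 3 gave -0.30, -0.21 and -0.22. With brain tissue markers as a covariate, Sdf2l1 (-0.69), Dnajc3 (-0.37) and Rpn1 (-0.42) passed, at adjusted p-values of 0.0123, 0.0222 and 0.033.

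**Figure D3:**
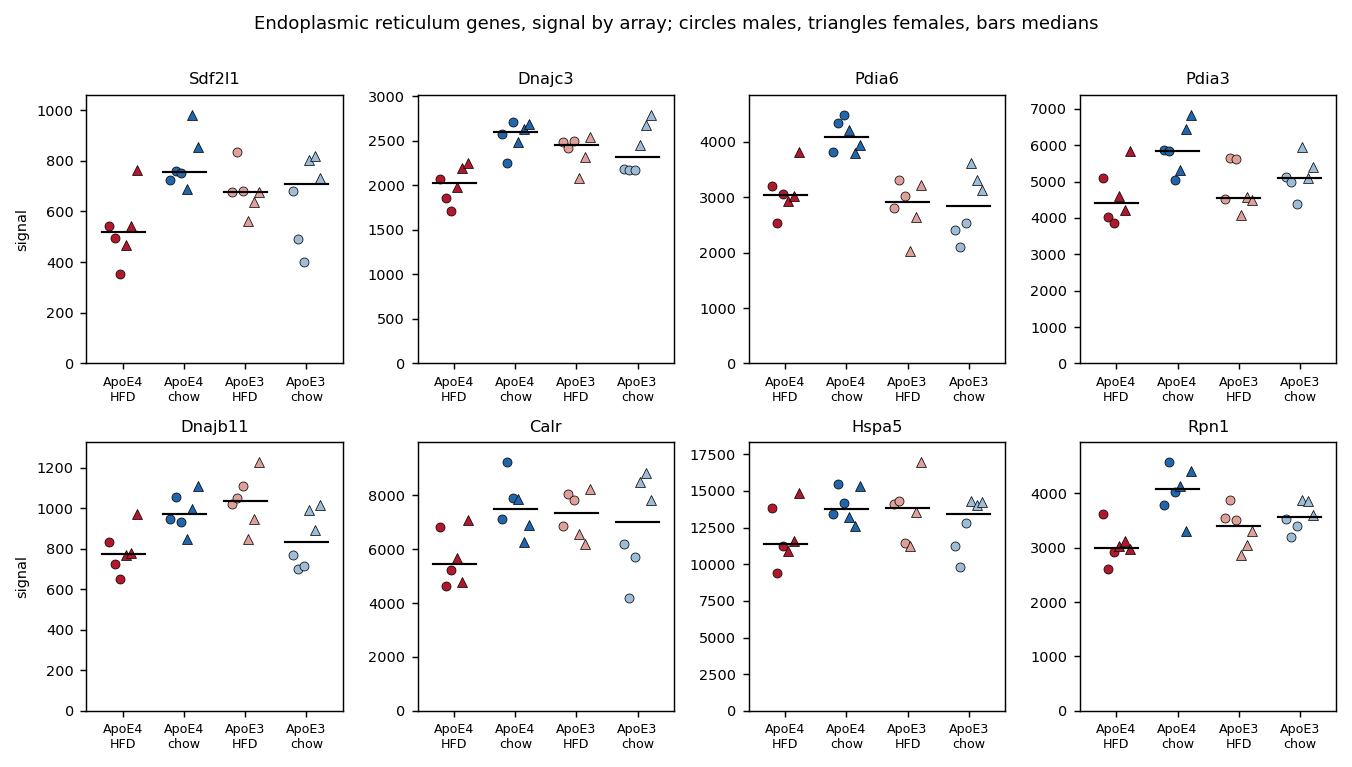
Signals on a linear axis from 0 of 8 genes of the endoplasmic reticulum on each of the 24 arrays, in the order ApoE4 high-fat, ApoE4 chow, ApoE3 high-fat and ApoE3 chow. Circles are males, triangles females and bars group medians. In ApoE4 mice the high-fat median of each gene is below the chow median, as for Sdf2l1 with 518 on high-fat and 756 on chow arrays.

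In ApoE3 mice the same genes had smaller differences or the opposite sign: 0.09 ± 0.15 for Sdf2l1, -0.01 ± 0.07 for the first probe set of Dnajc3, 0.00 ± 0.12 for Pdia6 and 0.29 ± 0.10 for Dnajb11. The difference between the genotypes was -0.60 ± 0.14 for Dnajb11 (unadjusted p = 0.000165, adjusted p = 0.187) and -0.69 ± 0.21 for Sdf2l1 (adjusted p = 0.278). Neither passed.

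A sequence feature lay in a minority of the promoters of this group. The endoplasmic reticulum stress element, here the letters CCAAT, then any 9 bases, then CCACG on either strand, is the site at which the activated ATF6 protein is known to work together with the factor NF-Y. It lay in 39 of 32851 RefSeq promoters (0.119%) taken from 250 bases before to 50 after a gene's start in GRCm38.p6, and in 8 of the 35 list members with a promoter in that table. Of 14 tested genes that held it, 11 were below 0, 5 were lower and 0 higher at an unadjusted p under 0.05, and the median was -0.14. These 14 were found by sequence alone, but 8 of them belong to the list above, so the count is not separate from it. All 5 lower ones (Pdia6, Calr, Canx, Hspa5 and Dnajc3) are list members. Holders outside the list (Ero1b, Spats2l, Pan2, Acacb, Alg12 and Adcy3) gave -0.13 to 0.14, with none at an unadjusted p under 0.05. Sdf2l1, Pdia3 and Dnajb11 were not among the holders. Below are the promoters of 4 of the genes described, to show where the element lies, in the direction of transcription and with the element in capitals. The element of Calr lies on the opposite strand and therefore reads in reverse complement.
Pdia6, chr12:17266339-17266638, plus strand: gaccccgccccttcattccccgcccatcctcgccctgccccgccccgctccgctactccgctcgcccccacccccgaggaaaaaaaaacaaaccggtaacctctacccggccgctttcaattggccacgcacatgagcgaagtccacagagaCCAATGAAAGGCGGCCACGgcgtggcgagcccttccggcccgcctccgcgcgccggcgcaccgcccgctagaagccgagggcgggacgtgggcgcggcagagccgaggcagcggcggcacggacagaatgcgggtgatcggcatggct
Dnajc3, chr14:118937682-118937981, plus strand: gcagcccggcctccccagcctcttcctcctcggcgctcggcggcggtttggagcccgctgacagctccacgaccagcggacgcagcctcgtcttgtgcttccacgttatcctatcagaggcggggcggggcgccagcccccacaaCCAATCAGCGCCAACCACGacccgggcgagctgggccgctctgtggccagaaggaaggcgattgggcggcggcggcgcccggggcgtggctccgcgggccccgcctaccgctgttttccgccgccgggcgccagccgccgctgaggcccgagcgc
Hspa5, chr2:34771840-34772139, plus strand: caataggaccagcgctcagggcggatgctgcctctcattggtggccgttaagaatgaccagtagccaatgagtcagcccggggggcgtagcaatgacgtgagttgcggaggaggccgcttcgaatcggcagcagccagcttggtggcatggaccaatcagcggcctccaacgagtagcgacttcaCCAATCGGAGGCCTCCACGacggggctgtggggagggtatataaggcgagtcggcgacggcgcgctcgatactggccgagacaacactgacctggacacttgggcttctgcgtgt
Calr, chr8:84846882-84847181, minus strand: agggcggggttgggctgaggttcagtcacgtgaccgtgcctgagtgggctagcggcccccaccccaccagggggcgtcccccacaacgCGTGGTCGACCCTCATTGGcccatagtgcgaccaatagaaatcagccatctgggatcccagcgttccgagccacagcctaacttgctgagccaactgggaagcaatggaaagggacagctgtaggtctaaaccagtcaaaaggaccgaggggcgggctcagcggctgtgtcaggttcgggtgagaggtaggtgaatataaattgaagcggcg
The element begins 98, 105 and 65 bases before the start in Pdia6, Dnajc3 and Hspa5, and 162 bases before it in Calr. A match describes these letters and shows neither binding nor a cause of the signals.

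Chaperones of the cytosol gave a small negative median. Of 21 tested cytosolic heat shock genes 3 were lower (Hspb1, Hspd1 and Hsph1) and 0 higher at an unadjusted p under 0.05, and the median was -0.08, against 0.06 in ApoE3 mice. It was 0.00 in females and -0.15 in males. Hspb1, a small heat shock protein, averaged 823 ± 97.8 on high-fat and 1012 ± 138 on chow arrays (SD, n = 6 each), a difference of -0.29 ± 0.10 (adjusted p = 0.544).

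Clock genes had differences in both directions. Of 16 tested clock genes, 10 were above 0, 7 were higher (Per1, Per2, Per3, Nr1d2, Dbp, Tef and Hlf) and 2 lower (Arntl and Clock) at an unadjusted p under 0.05, and 4 differed by over 1.5-fold. The list median was 0.24, against 0.11 in ApoE3 mice. None passed after adjustment in the fit of all 24 arrays.

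The activators CLOCK and BMAL1 pair to switch on the other clock genes. Clock signals through 1 of its 2 probe sets were 524, 572 and 709 on high-fat arrays, against 729, 817 and 914 on chow arrays, and the difference of -0.46 ± 0.09 had the smallest p of the comparison (unadjusted p = 2.16e-05, adjusted p = 0.107). Every high-fat array was below every chow array. The other probe set of Clock gave -0.22 ± 0.10 (adjusted p = 0.668), with overlapping groups. Arntl, the partner of Clock, had signals of 93.3, 143 and 234 on high-fat arrays, against 149, 299 and 439.5 on chow arrays, a difference of -0.81 ± 0.22 (adjusted p = 0.432). Npas2, a stand-in for Clock in the brain, had 76.4, 98.7 and 100 on high-fat arrays, against 61.9, 161 and 245 on chow arrays (-0.48 ± 0.26, adjusted p = 0.806). The chow arrays of Arntl and Npas2 spread more widely than the high-fat arrays.

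The Period proteins feed back to repress the activators. Per2 had signals of 305, 451 and 525 on high-fat arrays, against 67.8, 182 and 536 on chow arrays, and its difference of 1.24 ± 0.35 (adjusted p = 0.432) was the largest of any tested gene read through a probe set that names it alone. Per3 had 339.6, 416 and 483 on high-fat arrays, against 164, 247 and 409.9 on chow arrays, a difference of 0.65 ± 0.16 (adjusted p = 0.401). Its dimmer probe set gave 0.07. Per1 had 247, 304 and 462 on high-fat arrays, against 162, 215 and 381 on chow arrays (0.44 ± 0.19, adjusted p = 0.655). In all 3 the highest chow signal was that of the female numbered 4, with 536 for Per2, 409.9 for Per3 and 381 for Per1. Cry1, another repressor, had 243, 423 and 519 on high-fat arrays, against 187, 279 and 395 on chow arrays (0.50 ± 0.26, adjusted p = 0.804).

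The output factors Dbp, Tef and Hlf bind a DNA site called the D-box. Hlf had signals of 456, 521 and 675 on high-fat arrays, against 349, 407 and 479 on chow arrays, a difference of 0.38 ± 0.09 (adjusted p = 0.369), and 5 of 6 high-fat arrays were above every chow array. Tef had 1318, 1631 and 1693 on high-fat arrays, against 735, 1156 and 1687 on chow arrays (0.49 ± 0.15, adjusted p = 0.443). Dbp had 1517, 3556 and 4294 on high-fat arrays, against 855, 1842 and 3109 on chow arrays (0.77 ± 0.27, adjusted p = 0.544). Nr1d2, a nuclear receptor that represses Arntl, had 3292, 4302 and 5375 on high-fat arrays, against 2455, 3376 and 4458 on chow arrays (0.34 ± 0.12, adjusted p = 0.504). Other probe sets of Dbp, Tef, Hlf and Nr1d2 were higher as well, by 0.50, 0.37, 0.31 and 0.28.

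A pair of known clock targets is described beside these genes. Wee1, a kinase that delays cell division and a known clock target in mouse liver, had signals of 338, 443 and 621 on high-fat arrays, against 224, 259 and 338 on chow arrays, a difference of 0.70 ± 0.14 (adjusted p = 0.107). On 5 of 6 high-fat arrays the signal was above every chow array, and the lowest equalled the highest chow array. Usp2, a rhythmic ubiquitin protease, had 845, 1129.8 and 1322 through a dimmer probe set on high-fat arrays, against 622, 747 and 1316 on chow arrays (0.47 ± 0.14, adjusted p = 0.443). The brightest probe set of Usp2 gave 0.26 (adjusted p = 0.62). Without the chow female numbered 4, Per3 (0.81), Wee1 (0.76), Usp2 (0.60) and Clock (-0.48) passed, at adjusted p-values of 0.0134, 0.04, 0.04 and 0.04, and the median of the clock list was 0.30. That array was singled out partly for its clock signals, so these passes are no separate support.

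**Figure D4:**
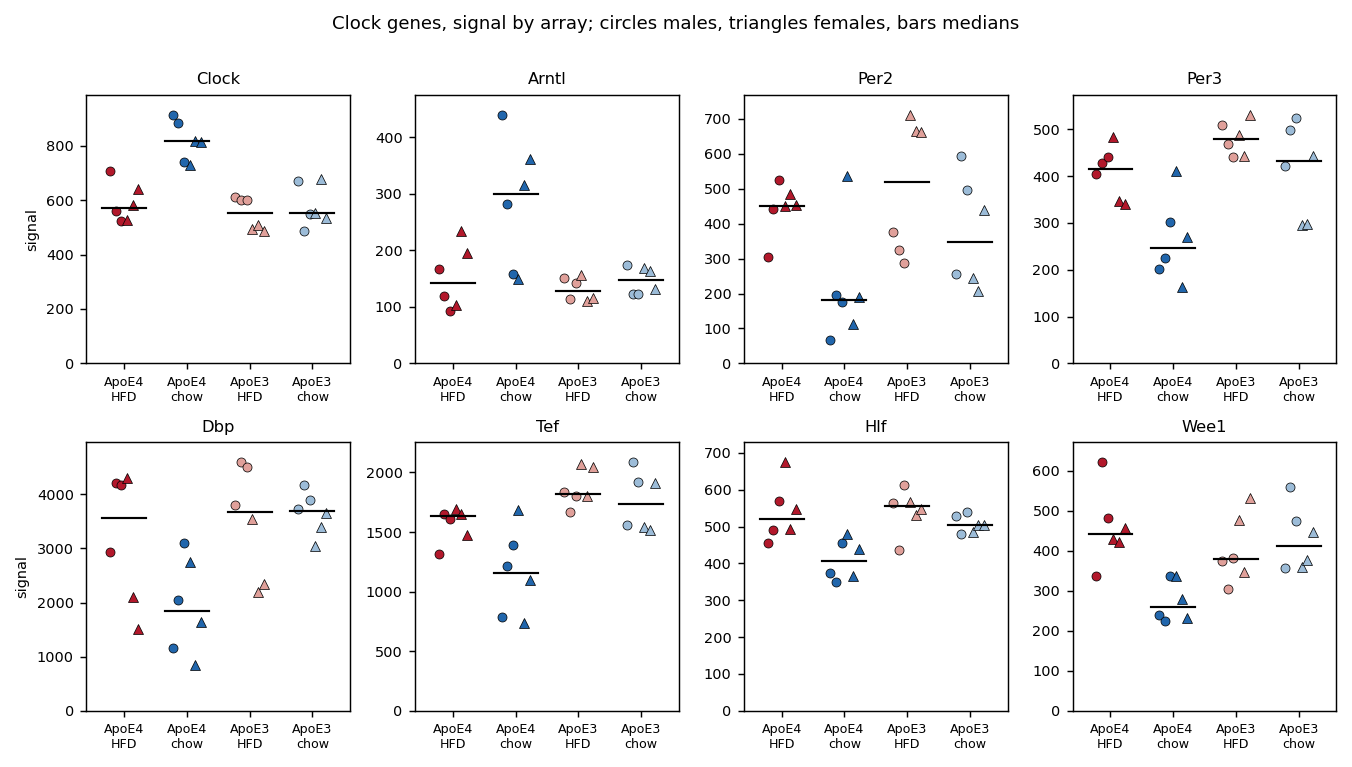
Signals on a linear axis from 0 of 8 clock genes and clock targets on each of the 24 arrays, in the order ApoE4 high-fat, ApoE4 chow, ApoE3 high-fat and ApoE3 chow. Circles are males, triangles females and bars group medians. Arntl reaches 234 on ApoE4 high-fat arrays and 439.5 on ApoE4 chow arrays.

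In ApoE3 mice, Arntl signals were 110 to 157 on ApoE3 high-fat arrays and 122 to 174 on ApoE3 chow arrays, inside the range of the ApoE4 high-fat arrays. Per3 signals were 441 to 531 on ApoE3 high-fat arrays and 295 to 524 on ApoE3 chow arrays, and Tef signals were 1668 to 2073 on ApoE3 high-fat arrays and 1514 to 2085 on ApoE3 chow arrays. Clock, through the first of these probe sets, had signals of 486 to 613 on ApoE3 high-fat arrays and 485 to 677 on ApoE3 chow arrays, all below the lowest ApoE4 chow array. The diet difference in ApoE3 mice was -0.09 ± 0.14 for Wee1, -0.14 ± 0.22 for Arntl and 0.43 ± 0.35 for Per2, none of which passed. The difference between the genotypes was 0.80 ± 0.20 for Wee1 (adjusted p = 0.212) and 0.88 ± 0.38 for Dbp (adjusted p = 0.485), and neither passed.

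The promoter of Per3 is shown because it holds 2 exact D-boxes, the letters TTATGTAA on either strand, which occur in 308 of the 32851 promoters (0.938%). It was the single member among the 13 clock genes with a promoter in the table to hold any, and the capitals mark both.
Per3, chr4:151044616-151044915, minus strand: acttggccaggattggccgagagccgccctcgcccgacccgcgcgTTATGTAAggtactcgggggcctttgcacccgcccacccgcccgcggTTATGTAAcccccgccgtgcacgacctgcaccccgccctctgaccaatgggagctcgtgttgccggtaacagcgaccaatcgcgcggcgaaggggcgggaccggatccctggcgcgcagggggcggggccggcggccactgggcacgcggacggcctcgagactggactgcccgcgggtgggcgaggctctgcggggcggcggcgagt
Of 39 tested genes with this D-box, 1 was higher and 0 lower at an unadjusted p under 0.05, against 3.32% and 3.55% of all genes, and their median was 0.02. The E-box CACGTG, at which CLOCK and BMAL1 bind, was in 7.15% of promoters and in those of Cry1, Per1 and Tef. Windows of this length leave out many known enhancers.

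Targets of glucocorticoids, the steroid hormones of the adrenal gland, leaned upward, with none past adjustment. Of 19 tested targets, 9 were higher (Fkbp5, Sgk1, Tsc22d3, Mt2, Sult1a1, Per1, Mt1, Plin4 and Nfkbia) and 0 lower at an unadjusted p under 0.05, and the median was 0.18, against 0.17 in ApoE3 mice. Per1 is also a clock gene. The receptor itself, Nr3c1, gave 0.08 ± 0.11 (adjusted p = 0.953).

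Fkbp5, a cochaperone that dampens the glucocorticoid receptor, had signals of 259.7, 378 and 442 on high-fat arrays, against 181, 220.2 and 421 on chow arrays, a difference of 0.60 ± 0.13 (adjusted p = 0.206). The highest chow signal was that of the female numbered 4, and without it the difference was 0.73 and passed (adjusted p = 0.00883). Sgk1, a kinase that raises sodium transport, had 6215, 6696 and 7544 on high-fat arrays, against 5051, 5505 and 6386 on chow arrays, a difference of 0.29 ± 0.07 (adjusted p = 0.239), with 5 of 6 high-fat arrays above every chow array. Tsc22d3, which encodes the anti-inflammatory protein GILZ, had 404, 726 and 1024 on high-fat arrays, against 285, 408 and 978 on chow arrays (0.68 ± 0.23, adjusted p = 0.501), and its other probe sets gave 0.66 and -0.03. Its 977.8 on the chow female numbered 4 stood above the other 5 chow arrays, which were between 284.7 and 454.7.

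Nfkbia, the inhibitor that holds NF-kB in the cytosol, had signals of 1062, 1091 and 1218 through a dimmer probe set on high-fat arrays, against 712, 844 and 975 on chow arrays. The groups did not overlap, and the difference was 0.40 ± 0.08 (adjusted p = 0.107), or 0.44 without the chow female numbered 4 (adjusted p = 0.04). In ApoE3 mice the same probe set differed by 0.37 ± 0.08 and passed (adjusted p = 0.0433), and the difference between the genotypes was 0.03 ± 0.12 (adjusted p = 0.952). The brightest probe set of Nfkbia gave 0.18 ± 0.08 in ApoE4 mice (adjusted p = 0.7), and the other 2 gave 0.17 and 0.25. The metal-binding metallothionein Mt2 had 1199.8, 1373 and 1779.9 on high-fat arrays, against 923, 1135 and 1469 on chow arrays (0.31 ± 0.11, adjusted p = 0.556).

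Interferon-stimulated genes leaned upward without passing the adjusted threshold. Of 30 tested genes of the type I response, 27 were above 0, 7 were higher (Ifih1, Ifitm1, Ifit3, Oasl2, Ifit1, Ddx60 and Ifitm3) and 0 lower at an unadjusted p under 0.05, and the median was 0.21, against 0.13 in ApoE3 mice. Ifih1, which encodes the viral RNA sensor MDA5, had signals of 1779.9, 1993 and 2796 on high-fat arrays, against 1351, 1475 and 1857 on chow arrays, a difference of 0.43 ± 0.11 (adjusted p = 0.432). On 4 of 6 high-fat arrays the signal was above every chow array. Ifit3, an antiviral effector, had 2744, 3687 and 5056 on high-fat arrays, against 1099.8, 1689 and 3882 on chow arrays, a difference of 0.92 ± 0.31 (adjusted p = 0.502). For its relative Ifit1 the signals were 2835, 3789 and 5236 on high-fat arrays, against 1543, 2376 and 3968 on chow arrays (0.63 ± 0.24, adjusted p = 0.614). The chow arrays numbered 3 and 4 carried the high chow values of both, at 3882 and 3785 for Ifit3 and 3968 and 3512 for Ifit1. With alpha-globin, described below, as a covariate, Ifit3 differed by 0.47 (adjusted p = 0.783) and Ifit1 by 0.38 (adjusted p = 0.791), while Ifih1 differed by 0.45 (adjusted p = 0.51).

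The main regulator of the response, Irf7, had 429, 726 and 927 on high-fat arrays, against 419, 567 and 685 on chow arrays (0.32 ± 0.19, adjusted p = 0.837), with broad overlap. Ifit1 signals were 384 to 721 on ApoE3 high-fat arrays and 385 to 828 on ApoE3 chow arrays, all below the lowest ApoE4 array. A core of the interferon response element, GAAA, then any 2 bases, then GAAA on either strand, lay in the promoters of 12 of the 22 list members that had one in the RefSeq table, Ifih1, Ifit1 and Ifit3 among them, and in 3.44% of all promoters. Of 261 tested genes with that core, 17 were higher and 5 lower at an unadjusted p under 0.05, with a median of 0.01. Over all genes, 3.32% were higher and 3.55% lower. The 261 include Ddx60, Ifih1, Ifit1, Ifit3 and Ifitm3 of the list above, so the count is not separate from it.

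Genes of the type II response and MHC class I gave 20 of 22 above 0, 3 higher (Ifngr1, H2-K1 and Tapbp) and 2 lower at an unadjusted p under 0.05, with a median of 0.13. The 2 lower ones, Pdia3 and Calr, help load peptides in the endoplasmic reticulum and belong to the chaperones above. Ifngr1, a chain of the interferon gamma receptor, had 398, 517 and 771 on high-fat arrays, against 236, 347 and 577 on chow arrays (0.53 ± 0.16, adjusted p = 0.443). Among 12 complement genes 1 was higher (C1qc, 0.35) and 1 lower (Cd59a, -0.21), and C1qa gave 0.12 ± 0.12 (adjusted p = 0.924). The 6 tested genes of MHC class II had a median of 0.01, and none reached an unadjusted p of 0.05.

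Macrophage markers had a positive median. Of 30 tested, 24 were above 0, 2 were higher (Cd163 and Cd68) and 0 lower at an unadjusted p under 0.05, and the median was 0.16, or 0.00 in females and 0.25 in males. The 2 higher of 30 stand beside 3.32% of all genes. Cd163, the hemoglobin scavenger receptor of resident macrophages, was Absent on all 6 chow arrays and averaged 46.2 ± 19.4 on high-fat arrays (3 of 6 Present) and 19 ± 7.19 on chow arrays (SD, n = 6 each). In ApoE3 mice it averaged 75.3 ± 19.9 on high-fat and 47.0 ± 9.46 on chow arrays. Summed signals of the 36 macrophage markers on the array overlapped, at 14450 to 17690 on high-fat and 12890 to 18040 on chow arrays, and 6 of the markers were Present on none of the 12. In the inflammation and NF-kB list 2 of 24 were higher (Nfkbia and Cxcl12) and 1 lower, with a median of 0.02. The lower one was the cytokine Il1b, with 99.6, 113 and 138 on high-fat arrays, against 125, 154 and 174 on chow arrays (-0.38 ± 0.12, adjusted p = 0.443). Another probe set of Cxcl12 gave -0.09. Lymphocyte markers gave 0 of 11 past an unadjusted p of 0.05, with a median of 0.13.

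Genes of lipid handling showed small and divided differences. Of 13 tested targets of LXR, the nuclear receptor that senses oxysterols, 2 were higher and 0 lower at an unadjusted p under 0.05, and the median was 0.10, against 0.18 in ApoE3 mice. Mylip, which sends the LDL receptor for degradation, had signals of 980, 1247 and 1547 on high-fat arrays, against 921, 1045 and 1122 on chow arrays, a difference of 0.29 ± 0.08 (adjusted p = 0.432). On 5 of 6 high-fat arrays the signal was above every chow array. In ApoE3 mice Mylip differed by 0.42 ± 0.08 and passed (adjusted p = 0.0291), and the difference between the genotypes was -0.13 ± 0.12 (adjusted p = 0.746). Abca1, which loads cholesterol onto apolipoproteins, had 2984, 3655 and 4038 on high-fat arrays, against 2420.2, 3096 and 3292 on chow arrays (0.27 ± 0.10, adjusted p = 0.57).

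Among 21 genes of fatty acid synthesis, 1 was higher and 1 lower at an unadjusted p under 0.05, with a median of 0.02. The higher one was the regulator Srebf1, with 1860, 1992 and 2408 on high-fat arrays, against 1398, 1626 and 2002 on chow arrays (0.28 ± 0.09, adjusted p = 0.443). Of 20 genes of sterol synthesis 2 were lower and 0 higher, with a median of -0.04. Among these was the sterol regulator Srebf2, with 233, 265 and 385 on high-fat arrays, against 291, 345 and 421 on chow arrays (-0.30 ± 0.11, adjusted p = 0.505), and the other was the cholesterol carrier Stard4 (-0.26 ± 0.11, adjusted p = 0.669).

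Fatty acid oxidation and PPAR targets, 47 genes, held 4 higher (Bdh1, Acat1, Acsl4 and Plin4) and 3 lower (Cpt1a, Hadha and Acot1), with a median of -0.03. Other probe sets of Cpt1a had the opposite sign, at 0.18 and 0.06. Bdh1, an enzyme of ketone body use, had 1199.5, 1268 and 1330.4 on high-fat arrays, against 973, 1030.2 and 1313 on chow arrays (0.25 ± 0.08, adjusted p = 0.443). Acot1, an acyl-CoA thioesterase whose near-identical relative Acot2 may bind the same probes, had 238, 366 and 424 on high-fat arrays, against 263, 552 and 826 on chow arrays (-0.55 ± 0.20, adjusted p = 0.573). Pdk4, a kinase that spares glucose during fasting, had 686, 778 and 901 on high-fat arrays, against 726, 915 and 987 on chow arrays (-0.16 ± 0.10, adjusted p = 0.837).

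Apolipoproteins and receptors for ApoE, 15 tested genes, had 1 higher and 1 lower at an unadjusted p under 0.05 and a median of -0.02. Apod, a lipocalin that binds arachidonic acid, had signals of 3220.3, 4795 and 5624 on high-fat arrays, against 2090.2, 2657 and 4580.3 on chow arrays, a difference of 0.70 ± 0.15 (adjusted p = 0.239). The signal was above every chow array on 4 of 6 high-fat arrays, and in ApoE3 mice the difference was 0.56 ± 0.15 (adjusted p = 0.127). Sorl1, a sorting receptor for the amyloid precursor protein, had 330.3, 441 and 496 on high-fat arrays, against 484, 575 and 664 on chow arrays (-0.39 ± 0.13, adjusted p = 0.464), with 5 of 6 high-fat arrays below every chow array. In ApoE3 mice it differed by 0.15 ± 0.13. Of 21 tested genes of amyloid precursor processing none reached an unadjusted p of 0.05, and the median was -0.04. Insulin, IGF and FOXO genes had 1 of 32 higher (Slc2a3, 0.43) and 1 lower (Pik3r1, -0.43), and Insr, dim on this array, averaged 38.8 ± 7.94 on high-fat and 29.9 ± 10.5 on chow arrays.

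Transcripts that define the epithelium differed little. Of 36 markers, 1 was higher (Cldn1) and 5 lower (Kcne2, Col8a1, Trpv4, Slc29a4 and Slc4a2) at an unadjusted p under 0.05, and the median was -0.04. Their summed signals were 213900 to 244700 on high-fat and 211500 to 251400 on chow arrays. Ttr gave -0.12 ± 0.13 (adjusted p = 0.94). Other tested probe sets of Cldn1 gave 0.22 and -0.14, and another of Col8a1 gave -0.005 ± 0.102. Kcne2, a potassium channel subunit needed for cerebrospinal fluid secretion, had 8379.5, 9479.5 and 10252 on high-fat arrays, against 9785, 10433 and 11468 on chow arrays (-0.18 ± 0.07, adjusted p = 0.561). The signal was below every chow array on 5 of 6 high-fat arrays. In the list of solute transporters and junctions 1 of 34 was higher and 2 lower, with a median of -0.01, and the thyroid hormone transporter Slco1c1 had 6032, 7276 and 7815 on high-fat arrays, against 7139, 8349.9 and 8876 on chow arrays (-0.21 ± 0.06, adjusted p = 0.443). Cilia genes gave 1 of 22 lower (Tubb4b, -0.19) with a median of -0.06.

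Markers of the vessels and the stroma had medians slightly below 0: -0.09 for 22 endothelial genes (1 lower, Kdr, -0.27), -0.05 for 16 of smooth muscle and pericytes (0 of either direction) and -0.09 for 35 of fibroblasts and collagens. In the last list 1 was higher, the matrix protein gene Ccn2, which averaged 1318 ± 212 on high-fat and 974 ± 232 on chow arrays (SD, n = 6 each) and differed by 0.45 ± 0.14 (adjusted p = 0.45). Among markers of brain tissue, neuron genes gave 16 of 22 above 0, 2 higher (Camk2b and Stmn3) and a median of 0.09, and the summed signals of the 39 neuron markers on the array were 10220 to 11560 on high-fat and 8170 to 10770 on chow arrays. Myelin genes gave 2 of 12 higher (Cldn11 and Aspa) with a median of 0.04, and astrocyte genes 1 higher (Aldh1l1) and 1 lower (Mt3) of 18 with a median of -0.01. The mean log2 signal of these brain markers was 8.51 ± 0.123 on high-fat and 8.45 ± 0.133 on chow arrays (SD, n = 6 each; two-sided exact permutation p = 0.489).

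Immediate early genes, which answer stimuli within minutes, gave 1 higher (Ier3) and 2 lower (Egr1 and Nr4a1) of 15 at an unadjusted p under 0.05, with a median of -0.05. Egr1 had signals of 142, 244 and 322 on high-fat arrays, against 185, 434 and 624 on chow arrays (-0.71 ± 0.29, adjusted p = 0.626), and with brain tissue markers as a covariate its difference was -0.92 and passed (adjusted p = 0.0233). With alpha-globin as a covariate it was -0.39 (adjusted p = 0.823), and the list median was 0.03. In the lysosome list Mcoln1, a calcium channel of the lysosome membrane, had 527, 540 and 562 on high-fat arrays, against 587, 618 and 667 on chow arrays, so that the groups did not overlap (-0.19 ± 0.06, adjusted p = 0.455). The groups overlapped through another probe set of Mcoln1, which gave -0.09 ± 0.09 (adjusted p = 0.919). The lysosome list held 2 higher and 3 lower of 41, with a median of 0.00. The 69 genes of the respiratory chain (median 0.00) and the 40 of the cytosolic ribosome (median -0.02) held none at an unadjusted p under 0.05. Oxidative stress defence had 2 of 32 higher (Nfe2l2, 0.17, and Txn2, 0.22), proteasome and ubiquitin genes 2 of 35 higher (Psmc2, 0.16, and Psme4, 0.23), splicing genes 1 higher and 2 lower of 46, and cell cycle genes 1 higher of 24 (Ccng1, 0.26). Through its other probe sets Ccng1 gave 0.02 and 0.13. Metal-handling genes had 2 higher and 3 lower of 21, with a median of -0.01.

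The remaining genes with the smallest p in either direction belong to none of these groups. Zbtb14, a zinc finger repressor, had signals of 557, 602 and 687 on high-fat arrays, against 405, 476 and 549.9 on chow arrays, without overlap (0.37 ± 0.09, adjusted p = 0.404). The other 3 probe sets of Zbtb14 gave 0.03, 0.10 and 0.12. Pom121, a nuclear pore membrane protein, had 826, 1266 and 1676 on high-fat arrays, against 741, 805 and 881 on chow arrays (0.53 ± 0.12, adjusted p = 0.283). Its second probe set gave -0.03, so the probe sets of Pom121 disagreed. Without the high-fat female numbered 4 the first one gave 0.64 and passed (adjusted p = 0.0499). Lower genes included the phosphate transporter Slc20a2, with 1055, 1355 and 1556 on high-fat arrays, against 1250.1, 1817 and 2035 on chow arrays (-0.41 ± 0.11, adjusted p = 0.432), but the other probe set of Slc20a2 gave -0.04 (95% interval -0.31 to 0.23). The amino acid transporter Slc6a17 had 576, 649.7 and 686 on high-fat arrays, against 668, 803 and 833 on chow arrays (-0.25 ± 0.07, adjusted p = 0.432). The G protein subunit Gna13 (-0.32 ± 0.09), the complex I assembly factor Ndufaf4 (-0.24 ± 0.07), Mif4gd (-0.39 ± 0.11) and Gigyf1 (-0.34 ± 0.10) were lower as well, each at an adjusted p of 0.432. The other 4 tested probe sets of Gna13 gave 0.16, -0.08, -0.17 and -0.18.

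Probe sets shared by several globin genes gave the largest differences of the comparison, with wide spread. A probe set shared by the 2 alpha-globin genes had signals on the high-fat diet of 4717, 2324 and 4325 in males and 8326, 13290.4 and 12589 in females, against 2508, 2241 and 3003 in chow males and 4066, 3291 and 999 in chow females. The difference was 1.36 ± 0.40 (adjusted p = 0.443). In all, 5 of 6 high-fat arrays were above every chow array, all females among them. The high-fat male numbered 2, at 2324, lay within the chow range. A second shared alpha-globin probe set differed by 1.60 ± 0.47 (adjusted p = 0.443) and one shared by 4 beta-globin genes by 1.74 ± 0.55 (adjusted p = 0.455). For beta-globin the high-fat arrays had 1422, 5589 and 13146, against 359, 1817 and 2929 on chow arrays. A dimmer tested probe set that names Hba-a2 alone gave 0.175 ± 0.175 (adjusted p = 0.924). Its signals overlapped, at 115.1 to 198.7 on high-fat and 96.9 to 181 on chow arrays. Alas2, the enzyme that starts heme synthesis in red blood cell precursors, was below the detection filter, with 70.2, 29.1, 58.4, 103, 278 and 151 on the high-fat arrays 1 to 6 and 9.5, 7.8, 9.1, 34.2, 11.9 and 4 on the chow arrays 1 to 6.

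The alpha-globin mean per array was 12.2 ± 1.10 on high-fat and 10.7 ± 0.779 on chow arrays (log2 scale, SD, n = 6 each). A two-sided exact permutation test over 924 divisions gave p = 0.026, which was 0.234 after adjustment over 9 array measures, and the smallest p this design allows is 0.00216. The other 8 measures, among them the Present share, the median signal, hybridization controls, 3' to 5' ratios and marker means, had p between 0.223 and 0.842. Within sex, the alpha-globin difference was 2.23 ± 0.47 in females and 0.49 ± 0.47 in males, and the difference between the sexes was 1.73 ± 0.66 (adjusted p = 0.997). Without the chow female numbered 4 both shared alpha-globin probe sets passed in females, at 2.61 (adjusted p = 0.0397) and 3.03 (adjusted p = 0.0488). That fit kept only the chow females numbered 5 and 6. It left out the highest chow signal of the first probe set, 4066, and kept the lowest, 999 on the female numbered 6. The 2 tested genes of the red blood cell list gave 0.17 ± 0.10 for Bpgm and 0.04 ± 0.35 for Slc4a1. Other probe sets of Bpgm gave 0.162 and 0.265. Alas2, whose signals are given above, is in that list but was not tested. With alpha-globin as a covariate, an alternative chosen after the data were seen, 0 probe sets passed. The covariate was applied to 136 genes, some chosen by rule and others, such as Ddit3 and Xbp1, after their values were seen. Of these 136, 22 then had a difference over 1.5 times smaller, 15 one over 1.5 times larger and 3 one of the opposite sign. Insr was at -0.07 with the covariate and 0.28 without it, and Pik3r1 at -0.15 with it and -0.43 without it. List medians with the covariate were 0.37 for the clock, -0.18 for cytosolic heat shock, 0.24 for macrophages, 0.17 for the type I interferon response and -0.09 for the unfolded protein response. Of 36 list medians, 10 had the opposite sign with the covariate, 12 were over 1.5 times larger and 2 over 1.5 times smaller. The median of lymphocyte markers was -0.02 with it and 0.13 without it.

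**Figure D5:**
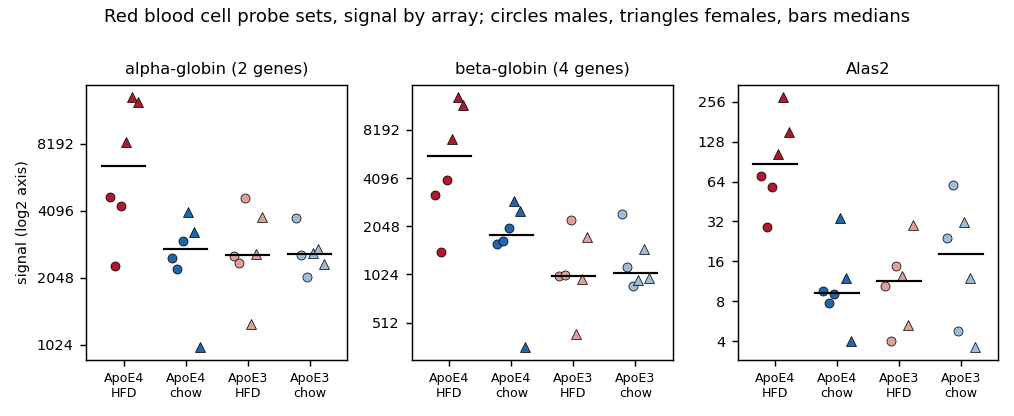
Signals on a log2 axis of an alpha-globin probe set, a beta-globin probe set and Alas2 on each of the 24 arrays, in the order ApoE4 high-fat, ApoE4 chow, ApoE3 high-fat and ApoE3 chow. Circles are males, triangles females and bars group medians. The 3 high-fat ApoE4 females have the highest alpha-globin signals, 8326 to 13290.4.

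Within each sex no probe set passed either. In the 3 high-fat against 3 chow males 0 of 13936 (0%) had an adjusted p under 0.05 in limma (432 higher and 417 lower unadjusted, smallest adjusted p 0.178), and in females 0 (0%; 246 higher and 471 lower, smallest 0.171). Without the chow female numbered 4, the female comparison gave 35 calls. The test of a difference between the sexes called 0 (0%) in limma (246 higher and 340 lower unadjusted, smallest adjusted p 0.35), or 3 without that array. Among genes read through their brightest probe set, the smallest p was that of Mdm4, a partner of the p53 regulator Mdm2, which differed by -0.66 ± 0.15 in females and 0.41 ± 0.15 in males, a difference of -1.07 ± 0.22 (adjusted p = 0.35). Lrrc1, Mettl7a1, Pafah1b1 and Ergic1 followed in the same direction, from -1.17 to -0.58. Other probe sets gave -0.31 ± 0.30 for Mdm4 and -0.22 and 0.34 for Pafah1b1. Stx4a, a membrane fusion protein, differed by 0.32 ± 0.10 in females and -0.29 ± 0.10 in males, a difference of 0.62 ± 0.14 (adjusted p = 0.822), and Stip1, Aldoc, Senp2 and Taf10 followed, from 0.50 to 0.67. Of the genes described above, Per3 differed by 0.52 ± 0.22 in females and 0.79 ± 0.22 in males. Fkbp5 differed by 0.50 ± 0.18 in females and 0.70 ± 0.18 in males, and Sdf2l1 by -0.51 ± 0.18 in females and -0.69 ± 0.18 in males.

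The difference between the diet effects in ApoE4 and ApoE3 mice passed for 0 of 13936 probe sets (0%) in limma (463 higher and 859 lower unadjusted, smallest adjusted p 0.187). In Neat1, a nuclear noncoding RNA, the diet difference was -0.33 ± 0.15 in ApoE4 and 0.78 ± 0.15 in ApoE3 mice, where it passed (adjusted p = 0.0291), and the difference between them was -1.12 ± 0.22 (adjusted p = 0.187). Npepps, a cytosolic aminopeptidase, differed by -0.28 ± 0.10 in ApoE4 and 0.40 ± 0.10 in ApoE3 mice, a difference of -0.69 ± 0.14 (adjusted p = 0.187). Ttc14 (-0.61 ± 0.13), Slc6a17 (-0.43 ± 0.10) and the RNA-binding protein gene Tial1 (-0.59 ± 0.13) went the same way at the same adjusted p. Other probe sets gave -0.19 for Npepps and -0.09, -0.09 and -0.20 for Tial1. In the other direction Nmrk1, a kinase of NAD synthesis, had 205, 212 and 234 on ApoE4 high-fat arrays, against 124, 161 and 186 on ApoE4 chow arrays, without overlap. Its diet difference was 0.43 ± 0.12 in ApoE4 and -0.20 ± 0.12 in ApoE3 mice, and the difference between them was 0.64 ± 0.17 (adjusted p = 0.228). Wee1, Nt5c3 (0.47 ± 0.11), Riok2 (0.62 ± 0.17) and the nucleolar chaperone Npm1 (0.35 ± 0.09) completed the 5 with the smallest p in that direction. The other probe set of Riok2 gave -0.12 (95% interval -0.38 to 0.15).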

How the data were processed

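Choroid plexus RNA from 4 groups of 6 samples (24 arrays in all) was measured on Affymetrix Mouse430A_2 arrays. Per the labels' protocols, tissue was laser-captured into Trizol, purified with a Qiagen RNeasy lipid kit and amplified with T7 transcription over 24 h. The deposited values are intensity signals on a linear scale made by the authors with GCOS 1.4, per the submitters' processing notes. Each array had been scaled to a trimmed mean of 500.173 to 500.194. A detection call (Present, Marginal or Absent) came with every deposited signal. The sources used here do not give the algorithm or its settings. Precision is limited by the number of arrays.

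The 64 control probe sets were left out. By the array's annotation 20380 probe sets named 1 gene, 691 several and 1555 none, and 20351 of the first kind matched RefSeq by Entrez id, with 0 symbols changed. Signals plus 16 were taken to log2. limma 3.58.1 in R 4.3.3 (lmFit, eBayes with trend and robust estimation) fitted group means and sex to all 24 arrays, and 8 means for contrasts within sex. Tests were two-sided, with Benjamini-Hochberg adjustment over all 13936 probe sets, and an adjusted p under 0.05 passed. Array measures were compared by exact permutation tests. The fit was tested on simulated data. Figures used Python 3.11.15 with matplotlib 3.10.9. Mouse sequences came from RefSeq tables.

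The genes named were the 10 with the smallest p in each direction, the 2 with the smallest p in each list, the 5 in each direction of both interactions and a short fixed list. Other list members past an unadjusted p of 0.05, the probe sets of Clock, Nfkbia, Dnajc3, Rpn1 and Usp2 that were not the brightest, and Per1, Per2, Tef, Alas2, Xbp1, Ddit3, Npas2 and Cry1 were chosen after their values were seen. Some genes of the fixed list are not reported here. Members and lists were chosen with earlier results of these data known.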

Additional observations from a re-analysis of the deposited data

Results flagged for a closer look

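Among 75 measures of the text (66 probe sets and 9 array measures) in each of the 2 ApoE4 groups, 150 sets of 6 values in all, 11 had 1 array farther from the rest than Dixon's test allows at the 95% level. Chance flags about 1 in 20 such sets.

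The chow female numbered 4 was the array that stood apart in 5 of them. Its signal was 1316 for Usp2 (the other 5 chow arrays 621.7 to 756.3), 977.8 for Tsc22d3 (284.7 to 454.7), 2420.2 for Abca1 (2975.2 to 3292.4), 1250.1 for Slc20a2 (1790.4 to 2034.8) and 34.2 for Alas2 (4 to 11.9). The chow female numbered 6 had the lowest beta-globin signal, 359.2, against 1577.4 to 2929.1 on the other chow arrays. On the chow female numbered 5 the mean log2 signal of epithelial markers was 12.18, against 12.31 to 12.38.

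On the high-fat side, the male numbered 1 had 304.6 for Per2, against 442 to 524.9 on the other 5 high-fat arrays. The male numbered 3 had 76.4 for Npas2 (97.7 to 100 on the others) and 330.3 for Sorl1 (436.9 to 496). The female numbered 4 had 2408 for Srebf1 (1860 to 2043.5 on the others).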

How the results depend on the processing

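The comparison was repeated under 26 alternatives. The count of 0 calls in ApoE4 became 15 with the brain marker covariate (10 higher, 5 lower), and leaving out 1 array gave 0 to 11 calls (0 to 6 higher, 0 to 5 lower), 11 without the chow female numbered 4 and 1 without the high-fat female numbered 4. The calls without the chow female numbered 4 were Fkbp5, Wee1, Usp2, Clock, Dnajc3, Per3, Dock9 (2 probe sets), Tspan4, Nfkbia and a probe set of several genes. The interaction with genotype gave 2 calls with the replicate block (Neat1 and Malat1), 4 without the 4 arrays whose hybridization controls were dimmest and 1 with the alpha-globin covariate, an alternative chosen after seeing the data. The 35 calls in ApoE3 became 5 without the detection filter, 128 with array weights, 19 with 1 probe set per gene and 3 with the brain marker covariate. Females gave 2 calls with that covariate, and 0 to 35 when 1 array was left out (35 without the chow female numbered 4, 1 without the high-fat male numbered 3 or the high-fat female numbered 4). The interaction with sex gave 0 to 3 calls when 1 array was left out, 3 without the chow female numbered 4. The cause of these shifts was not tested, and some of the alternatives also changed the number of probe sets or arrays.

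Same-numbered arrays of the 2 ApoE4 groups did not deviate together: correlations of their residuals over 6 pairs were -0.31 to 0.08, and 0 of 6 matched best with their own number. The replicate block gave 0 calls in ApoE4 and 42 in ApoE3, and the cause of its 2 interaction calls was not tested.

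The sign changed for 5 gene differences, of which that of Insr, 0.278 in the main fit, was the largest. Ddit3 was -0.078 without the 4 arrays with the dimmest hybridization controls and -0.091 with the alpha-globin covariate (-0.039 to 0.17 when 1 array was left out). Slc4a1 was -0.034 with a pseudocount of 1, -0.036 with array weights, -0.513 without those 4 arrays, -0.551 with the alpha-globin covariate and -0.339 to 0.215 when 1 array was left out. Insr was -0.066 with the alpha-globin covariate, Nr3c1 was -0.011 without the chow female numbered 4 (-0.011 to 0.147 when 1 array was left out) and Xbp1 was 0.029 without the chow male numbered 2 (-0.132 to 0.029).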
